A study of Mus musculus with 40 samples.

Results

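Vehicle-treated neural stem cell (NSC) cultures at 144 h were compared with vehicle-treated cultures at 96 h, which takes 5 of the 40 arrays of the study. The 144 h group held 2 arrays, with the replicate letters A and C, and the 96 h group held 3, with the letters A, B and C, all chosen by their titles. The cells came from the telencephalon of mouse embryos (E13.5), on a mixed 129/Svj and C57Bl/6 background. They carried floxed Id1 and Id2 alleles (L/L), were null for Id3 (Id3-/-) and held a Cre-ER fusion at the Rosa26 locus, so all 5 samples lacked Id3. They grew on laminin with 20 ng/ml of both FGF-2 and EGF, and were given the solvent, 100% ethanol, with no 4-hydroxytamoxifen (4-OHT). Side-by-side values come from the same cells given 250 nM 4-OHT, which releases the recombinase, with 2 arrays at 144 h and 3 at 96 h. Whether the samples came from separate animals, litters or cultures is not given in the labels. The p-values here therefore reflect only the spread within groups, taken over all 40 arrays of the study, which can be technical spread.

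NSCs of the embryonic telencephalon divide in culture while FGF-2 and EGF, which signal through receptor tyrosine kinases to ERK, are supplied. Entry into S phase needs the E2F transcription factors, whose targets include the MCM helicase subunits, the licensing factors Cdc6 and Cdt1 and the enzymes that make deoxynucleotides. The genes of mitosis, such as the Aurora kinases and the spindle kinesins, are expressed later in the same cycle. In the same cultures astrocytes can form, which express Gfap and, in injured tissue, the reactive astrocyte genes.

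Bead intensities of Illumina MouseWG-6 arrays were background-corrected, quantile-normalized and put on a log2 scale, called the level here. On the 5 arrays between 17410 and 18731 probes were detected, and 21740 probes, for 11087 genes, were tested in a fit over all 40 arrays. The difference is the level at 144 h minus the level at 96 h, and a probe was called where the limma p-value adjusted over all tested probes was under 0.05. RNA came from whole cultures, so fewer cells of a type and less RNA per cell cannot be told apart. Of 18 listed neural stem cell genes 15 were tested, with summed linear levels of 25988 to 28043 at 144 h and 23186 to 28257 at 96 h, and 0 were called. Of 16 listed microglial and macrophage genes 2 passed the filter on low values, and of 12 endothelial genes 4 did.

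The arrays of each group were not alike. The 144 h arrays A and C differed by more than 2-fold in 2509 probes, while at 96 h the arrays A and B differed so in 0 probes, A and C in 1288 and B and C in 1761. Array numbers in the labels place letters A and B of these times in one series and letter C in another, and the labels do not say whether these are hybridization batches. The difference was therefore also taken within letter A and within letter C, which are matched differences of 1 array each, described with no test. In the matched A difference 1998 probes moved over 2-fold (9.19% of those tested), with 949 higher and 1049 lower at 144 h. In the matched C difference 1104 did (5.08%), with 654 higher and 450 lower. In all, 154 probes (0.708%) moved over 2-fold the same way in both, 56 of them up and 98 down, which is 7.71% of the probes of A and 13.9% of those of C. A further 134 moved over 2-fold in opposite directions.

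Over both letters together, 353 probes were called (1.62% of those tested), with 130 higher (0.598%) and 223 lower (1.03%) at 144 h. With 1 probe per gene, 231 were called (2.08%), of which 77 genes rose (0.695%) and 154 fell (1.39%). The 144 h arrays lay outside the range of the 96 h arrays in 117 of the 130 risers, in 221 of the 223 fallers and in 20.3% of all tested probes, and since the calls were made on the same arrays nothing is read from this. Among the called fallers the matched A difference was the larger in 201 of 223 probes, with medians of -1.91 in A and -0.76 in C. Among the called risers it was the larger in 84 of 130, with medians of 1.25 in A and 0.72 in C. Leaving out 144 h replicate A lowered the count to 109 probes, with 102 higher and 7 lower, and leaving out 144 h replicate C raised it to 1766. It was 147 without 96 h replicate A, 172 without B and 350 without C. A fit of the 5 arrays alone called 0. The 144 h arrays differed by more than 2-fold in 2509 probes, and the spread shared over all 40 arrays need not be that of this group.

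The share of called probes that were higher was 36.8%. It was 97.6% of 127 probes when each array was scaled to the median of all its probes, which shifted the median difference of the tested probes to 0.17, and 17.7% of 248 probes when scaled to the median of the probes detected on all arrays, which gave a median of -0.07 and was added after the data were seen. It was 49.3% without background correction and 47.3% without the filter on dim probes. In the quantile-normalized values the median difference over the tested genes was -0.002.

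Replication genes were lower at 144 h than at 96 h on both arrays, and this list had the highest share of called members of the 27 lists examined. The S phase list held MCM subunits, licensing factors and nucleotide enzymes, and also E2f1, Ccne1, Ccne2 and Uhrf1, given below. In this list 22 of 25 genes were tested. Of these, 17 fell (against 1.39% of all tested genes), 0 rose and 5 did not pass, with a median difference of -1.45. All 22 matched differences were below 0 in A, with a median of -1.77, and in C, with a median of -1.22. In 21 of the 22 both 144 h arrays lay below all 3 arrays of 96 h, against 11.6% of all tested genes. Without 144 h replicate A none of the 22 was called (median -0.85), and under scaling to the median of all probes none was either (median -1.21). Without 96 h replicate C 10 were called. With scaling to the detected probes 17 fell.

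The MCM helicase unwinds DNA at replication origins, and all 6 of its core subunits were in the list. Mcm5 fell 4.54-fold, the most of the 6. Its level was 7.34 and 9.64 at 144 h (A and C), against 10.42, 10.53 and 11.07 at 96 h (A, B and C). Both 144 h arrays lay below all of 96 h, with A lower than C (difference -2.18 ± 0.38 SE, adjusted p = 0.00197). Mcm3, Mcm6, Mcm2 and Mcm4 fell 3.05-fold, 2.83-fold, 2.74-fold and 2.69-fold (adjusted p = 0.011, 0.00137, 0.0118 and 0.00137). Mcm7 differed by -1.23, with an adjusted p of 0.0647. The matched C difference ran from -0.98 for Mcm6 to -1.72 for Mcm3 over these 6 genes.

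Among the factors that load or activate the helicase, Cdc6 fell 3.76-fold. Its level was 5.55 and 6.85 at 144 h, against 7.92, 8.16 and 8.26 at 96 h (adjusted p = 0.00281). Gins2, a subunit of the GINS complex that joins the active helicase, fell by 1.90 (adjusted p = 0.00909). Cdt1, the partner of Cdc6 in loading, fell by 1.12 (adjusted p = 0.0234). Mcm10, which helps to start the helicase, fell 4.53-fold, with 6.33 and 8.44 at 144 h and 9.43, 9.58 and 9.69 at 96 h (adjusted p = 0.00281). On each of these genes the 144 h groups lay wholly below the 96 h arrays.

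Genes for the supply of deoxynucleotides included Tk1, with the largest called fall. Tk1, the thymidine kinase of dividing cells, was at 4.88 and 8.59 at 144 h, against 9.37, 9.35 and 9.95 at 96 h, which is 7.04-fold lower (-2.82 ± 0.60 SE, adjusted p = 0.0111). The matched differences were -4.49 in A and -1.36 in C, so the 2 arrays differed widely in size. A lower-signal Tk1 probe also fell (-1.44, adjusted p = 0.0281), while the dimmest differed by -0.17. Rrm2 and Rrm1, the subunits of ribonucleotide reductase, fell by 1.87 and 1.41 (adjusted p = 0.00513 and 0.0227). Tyms, thymidylate synthase, fell by 1.79 (adjusted p = 0.0469), and here C moved more than A, with -2.48 and -1.69. The array also has a probe for a Tyms pseudogene with a fall of 1.82, and whether the probes share sequence was not examined, so the Tyms values are uncertain.

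Several of the largest called falls were of genes that act at replication forks or in repair. Chaf1b, a subunit of the CAF-1 complex that places histones on new DNA, had levels of 5.40 and 7.17 at 144 h, against 8.36, 8.54 and 9.07 at 96 h, 5.18-fold lower (adjusted p = 0.000766). Its fall was -2.96 in A and -1.90 in C. Uhrf1, which maintains DNA methylation at replication forks, fell by 1.85 (adjusted p = 0.0117). Clspn, the checkpoint adaptor claspin, fell by 1.94 and Timeless, of the fork protection complex, by 1.90 (adjusted p = 0.00614 and 0.00137). Rad54b, a recombination factor, fell by 2.01 and Esco2, which acetylates cohesin in S phase, by 1.92 (adjusted p = 0.017 and 0.0258). For Esco2 the matched differences were -3.50 in A and -0.33 in C.

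Among regulators of the cell cycle, E2f1, known to activate S phase genes, fell by 1.23 with matched differences of -1.52 in A and -1.18 in C (adjusted p = 0.0235). Mybl2, a factor of the late cell cycle, had levels of 5.24 and 7.07 at 144 h, against 8.02, 8.05 and 8.36 at 96 h (-1.99, adjusted p = 0.00281). Ccne2, an E2F target that drives entry into S phase, fell by 1.62 (adjusted p = 0.00859), with -1.74 in A and -1.68 in C, while Ccne1 differed by -0.50 (adjusted p = 0.457). Rbl1, the pocket protein p107, fell by 1.29 (adjusted p = 0.0255), the only call among 15 tested CDK inhibitors, pocket proteins and D cyclins, and by 0.65 without 144 h replicate A (adjusted p = 0.778).

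**Figure D1:**
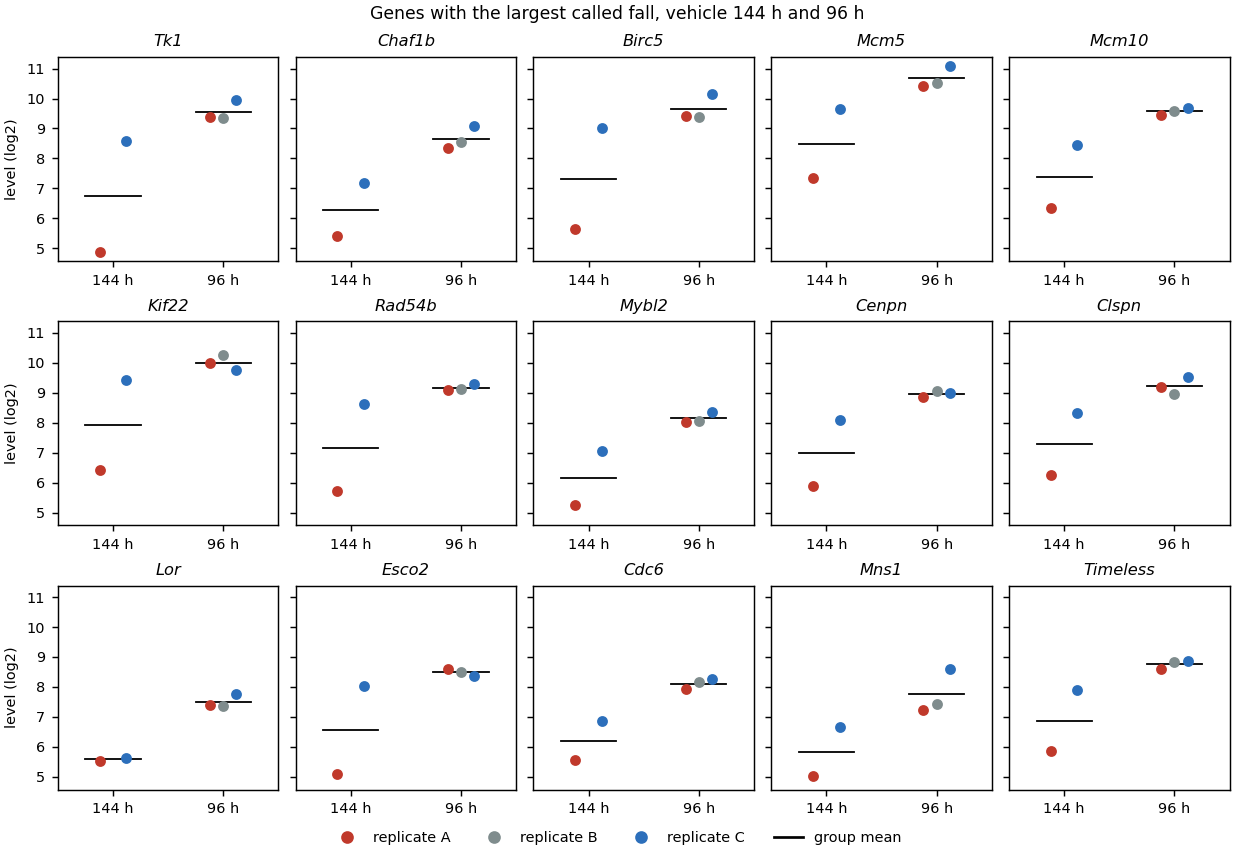
Level (log2, background-corrected and quantile-normalized) of the 15 genes with the largest called fall, on the 2 vehicle arrays of 144 h (left) and the 3 of 96 h (right); points are arrays coloured by replicate letter and bars are group means. Replicate A at 144 h is the lowest array in each panel, and in the panel of Lor replicates A and C at 144 h lie side by side at 5.54 and 5.62.

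Promoters of some S phase genes that fell are shown, picked because they hold an E2F match. RefSeq gives a 300-base window around the annotated start (GRCm38.p6) for 8979 of the 11087 tested genes. The sites searched for E2F on both strands were TTTGGCGC, TTTCCCGC, TTTGCCGC and TTTCGCGC, which may overlap each other, and this motif was added after the values were seen. A match stood in 7 of 18 S phase windows (38.9%), in 13 of 122 windows of genes that fell (10.7%), in 2 of 59 of genes that rose (3.39%) and in 373 of all 8979 (4.15%). Outside the S phase list the share among genes that fell was 7 of 108 (6.48%). In the G2 and M phase list it was 1 of 16 (6.25%). The S phase list holds known E2F targets, so its high share is not read as a result of these arrays. The windows of Mcm5 (chr8:75109259-75109558, plus strand), Cdc6 (chr11:98907901-98908200, plus strand) and Mcm6 (chr1:128359656-128359955, minus strand) read as follows, with the E2F matches in capitals.
Mcm5: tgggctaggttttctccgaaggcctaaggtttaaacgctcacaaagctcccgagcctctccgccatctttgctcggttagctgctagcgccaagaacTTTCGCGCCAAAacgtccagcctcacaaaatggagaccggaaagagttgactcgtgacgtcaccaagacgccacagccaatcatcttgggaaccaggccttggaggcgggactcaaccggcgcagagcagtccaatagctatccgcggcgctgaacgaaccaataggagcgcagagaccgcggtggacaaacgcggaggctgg
Cdc6: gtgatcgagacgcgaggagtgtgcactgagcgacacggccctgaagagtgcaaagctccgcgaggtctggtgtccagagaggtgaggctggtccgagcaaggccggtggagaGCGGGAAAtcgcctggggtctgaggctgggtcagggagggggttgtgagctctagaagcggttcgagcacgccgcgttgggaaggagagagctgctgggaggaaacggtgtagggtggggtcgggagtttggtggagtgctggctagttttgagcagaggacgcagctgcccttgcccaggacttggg
Mcm6: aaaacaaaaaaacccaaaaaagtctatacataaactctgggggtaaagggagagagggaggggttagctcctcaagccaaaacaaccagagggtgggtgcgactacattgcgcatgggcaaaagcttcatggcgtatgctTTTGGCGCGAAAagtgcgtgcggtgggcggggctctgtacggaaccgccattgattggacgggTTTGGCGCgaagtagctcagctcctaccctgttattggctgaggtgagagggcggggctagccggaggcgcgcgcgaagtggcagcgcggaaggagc
Mcm5 holds 2 matches that overlap on opposite strands, Cdc6 holds 1 and Mcm6 holds 3. A match describes letters in the window and is not a measured binding site.

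Mitotic genes were low at 144 h mainly on array A. Of 25 genes in the G2 and M phase list 19 were tested, with a median of -1.36. Of these, 6 fell, against 1.39% of all tested genes, and 13 did not pass. The matched A difference was below 0 in all 19, with a median of -2.42. The matched C difference was below 0 in 13 of 19, with a median of -0.14. Without 96 h replicate A or B 1 of the 19 was called. Without 144 h replicate A none was (median -0.36), and without 144 h replicate C 15 fell (median -2.32). None was called under scaling to the median of all probes (median -1.13).

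Birc5, survivin, a member of the chromosomal passenger complex, fell the most of the list. Its level was 5.64 and 9.01 at 144 h, against 9.40, 9.38 and 10.15 at 96 h, 4.99-fold lower (adjusted p = 0.0188). Its other 2 probes fell by 1.75 and 2.11. Without 144 h replicate A the Birc5 difference was -0.63, against -2.32 with it. Aurka, the Aurora A kinase, had levels of 6.75 and 8.85 at 144 h, against 9.58, 9.56 and 9.35 at 96 h (-1.69, adjusted p = 0.018). Bub1b, of the spindle checkpoint, fell by 1.69 (adjusted p = 0.0188), with -2.96 in A and -0.42 in C. In all 3 genes array A at 144 h was the lowest, and C lay closer to the 96 h arrays. Kif11, a spindle motor, and Anln, anillin of the contractile ring, fell by 1.78 and 1.45 (adjusted p = 0.0188 and 0.0422), and Cdc20, the activator of the anaphase-promoting complex, by 1.33 (adjusted p = 0.0333).

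Of 4 further genes of mitosis, Nusap1 and Top2a were chosen after their values were seen. Kif22, a chromosome-arm kinesin, differed by -3.56 in A and -0.32 in C (group difference -2.07, adjusted p = 0.0295). Cenpn, a centromere protein, differed by -2.96 in A and -0.91 in C (-1.99, adjusted p = 0.00431). Nusap1, of the spindle, was -3.19 in A and 0.40 in C and did not pass (adjusted p = 0.0619), and Top2a, the topoisomerase of dividing cells, was -2.77 in A and -0.16 in C (adjusted p = 0.109).

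**Figure D2:**
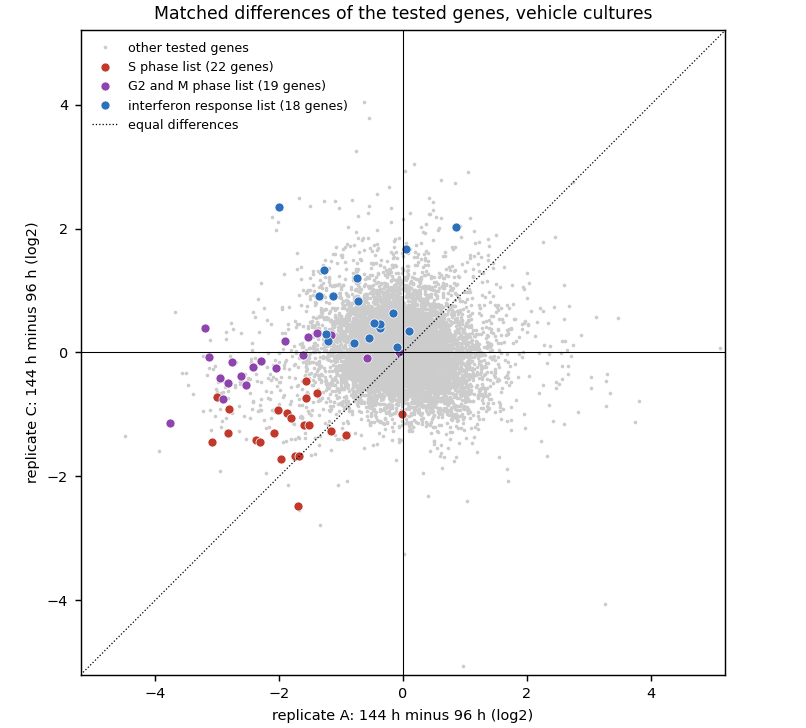
Matched difference of replicate C (vertical, log2, 144 h minus 96 h) against that of replicate A (horizontal) for 11087 tested genes, with the S phase, G2 and M phase and interferon response lists coloured and equal differences dotted. S phase genes lie below 0 on both axes, G2 and M phase genes lie left of 0 with C near 0 (medians -2.42 and -0.14), and interferon genes lie mostly left of 0 and above 0.

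Across the vehicle time course the list medians were as follows, over the same genes on every array. The S phase median ran from 8.81 to 9.05 at 6 h, from 8.79 to 9.04 at 12 h, from 8.99 to 9.23 at 18 h, from 8.62 to 9.18 at 24 h and from 8.91 to 8.99 at 48 h. At 96 h it was 8.26, 8.28 and 8.74, and at 144 h 6.56 in A and 7.54 in C. Both 144 h arrays lay below every earlier vehicle array. The G2 and M phase median ran from 9.27 to 9.56 at 96 h and was 6.75 in A and 8.85 in C at 144 h. On the 4-OHT arrays the S phase median was 6.97 and 7.78 at 144 h, and between 7.97 and 8.39 at 96 h.

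**Figure D3:**
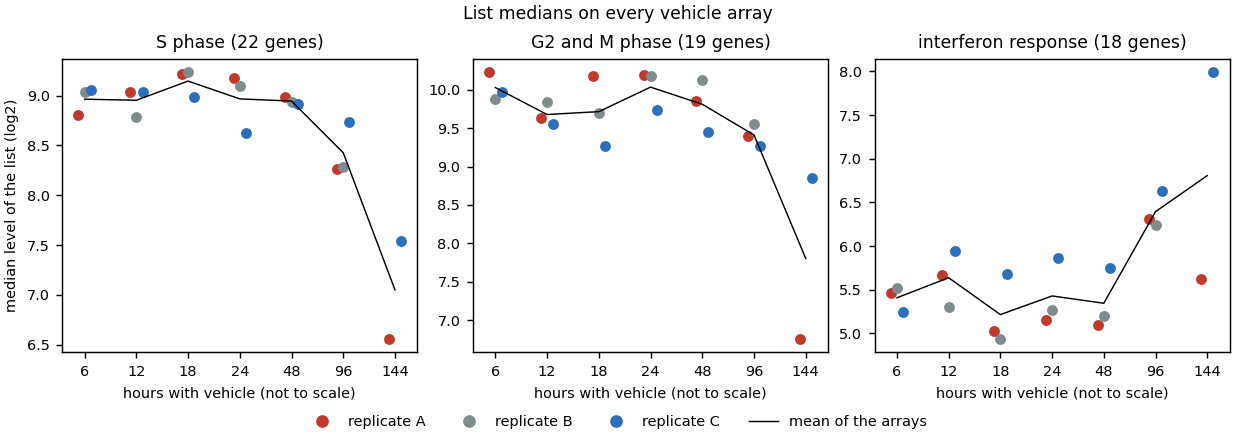
Median level (log2) of the tested genes of the S phase, G2 and M phase and interferon response lists on each of the 20 vehicle arrays, by hours with vehicle (categories, not to scale), coloured by replicate letter, with the mean of the arrays as a line. For S phase both 144 h arrays, at 6.56 and 7.54, lie below all earlier arrays, and for the interferon response the 144 h arrays lie at 5.62 in A and 7.99 in C.

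Lor and Mest fell at least as far in C as in A. Lor, loricrin, known as a protein of the cornified envelope of skin, had levels of 5.54 and 5.62 at 144 h, against 7.39, 7.38 and 7.77 at 96 h. The 144 h arrays lay close together and below all of 96 h, 3.81-fold lower (-1.93 ± 0.31 SE, adjusted p = 0.000975), with -1.85 in A and -2.14 in C. Mns1, a meiosis-specific nuclear structural protein, fell by 1.91 with -2.22 in A and -1.94 in C (adjusted p = 0.0227), and by 1.09 without 144 h replicate A (adjusted p = 0.703). Mest, an imprinted gene of growing tissue chosen after its values were seen, fell by 1.47, with 10.08 and 10.57 at 144 h and 11.56, 11.59 and 12.23 at 96 h (adjusted p = 0.00383), and by 1.22 without 144 h replicate A (adjusted p = 0.141). Of the falls of the 15 named genes, only that of Lor was called without 144 h replicate A.

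The largest rise with both letters alike was that of Mylk2, the myosin light chain kinase known from skeletal muscle. Its level was 7.92 and 8.87 at 144 h, against 5.18, 5.24 and 6.12 at 96 h, 7.36-fold higher (2.88 ± 0.28 SE, adjusted p = 3.56e-08). The matched differences were 2.73 in A and 2.75 in C. Its vehicle means were 4.41, 4.23, 4.28, 4.27 and 4.33 at 6, 12, 18, 24 and 48 h and 5.51 and 8.39 at 96 and 144 h. With 4-OHT it was 5.56 and 6.53 at 144 h, against 4.58, 4.32 and 4.39 at 96 h, a rise of 1.61 (adjusted p = 0.0252).

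Tcim, a small regulator of transcription and immune responses, rose 4.67-fold. It was at 9.21 and 9.38 at 144 h, against 6.76, 6.93 and 7.52 at 96 h (adjusted p = 0.000161). It was not low throughout before that: its vehicle means were 8.66, 7.86, 7.50, 6.31, 6.43, 7.07 and 9.30 at 6, 12, 18, 24, 48, 96 and 144 h.

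Among the 15 largest called rises were 3 cytokines, a cytokine receptor and a transcription factor. Il34, a ligand of the CSF1 receptor, rose by 1.74, with 6.79 and 7.23 at 144 h and 4.72, 4.53 and 6.56 at 96 h (adjusted p = 0.0193). Its 96 h arrays were split, with C near the 144 h level. Tslp, an epithelial-type cytokine, rose by 1.62, with 7.29 and 8.57 at 144 h and 6.21, 6.32 and 6.39 at 96 h (adjusted p = 0.00265). Il33, the alarmin of the IL-1 family, rose 2.82-fold, with 6.96 and 6.90 at 144 h and 5.58, 5.32 and 5.40 at 96 h (adjusted p = 0.018). In Tslp and Il33 the 144 h arrays lay above all of 96 h. Without 144 h replicate A the Il33 difference was 1.47 (adjusted p = 0.207). Osmr, the oncostatin M receptor subunit, rose by 1.62, with 7.35 and 6.89 at 144 h and 5.32, 5.39 and 5.77 at 96 h (adjusted p = 0.00165). Cebpb, a transcription factor of acute-phase and cytokine responses, rose by 1.66, with 10.10 and 10.16 at 144 h and 8.47, 8.16 and 8.79 at 96 h (adjusted p = 0.00197).

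Timp1, a metalloproteinase inhibitor, rose 4.44-fold, with 10.50 and 10.87 at 144 h and 8.24, 8.28 and 9.09 at 96 h (adjusted p = 0.0373). Its second probe differed by 2.09 (adjusted p = 0.0598). Without 144 h replicate A the Timp1 difference was 2.33 (adjusted p = 0.22). Camk1d, a calmodulin-dependent kinase, and Ahnak, a scaffold protein of the cell membrane, rested on array A. Camk1d had levels of 8.06 and 4.995 at 144 h, against 4.59, 4.42 and 4.44 at 96 h (adjusted p = 0.0117), and its other probe differed by 0.03. Ahnak had 8.93 and 5.91 at 144 h, against 5.83, 5.82 and 5.33 at 96 h (adjusted p = 0.0327), and 2 lower-signal probes differed by 1.21 and 0.42 with no call.

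Further rises were those of Rgs4, which speeds GTP hydrolysis by G-alpha proteins (1.73, adjusted p = 0.00795), Ptchd1, a patched-domain membrane protein (1.59, adjusted p = 0.000181), Atxn1, ataxin 1 (1.54, adjusted p = 0.0373), and Tmod1, which caps actin filaments (2.82-fold, adjusted p = 0.0259). In each the matched A difference was the larger, for Rgs4 2.59 against 0.54 in C. Stac2, an adaptor protein known from calcium channels, had levels of 6.23 and 5.90 at 144 h, against 4.86, 4.50 and 4.33 at 96 h (1.51 ± 0.13 SE, adjusted p = 4.27e-09), and was detected on 1 of the 3 arrays of 96 h. Of the 15 named risers, 6 were called without 144 h replicate A, namely Cebpb, Mylk2, Ptchd1, Stac2, Tcim and Tslp. Scaling to the detected probes kept the direction of all 15 and called 8.

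**Figure D4:**
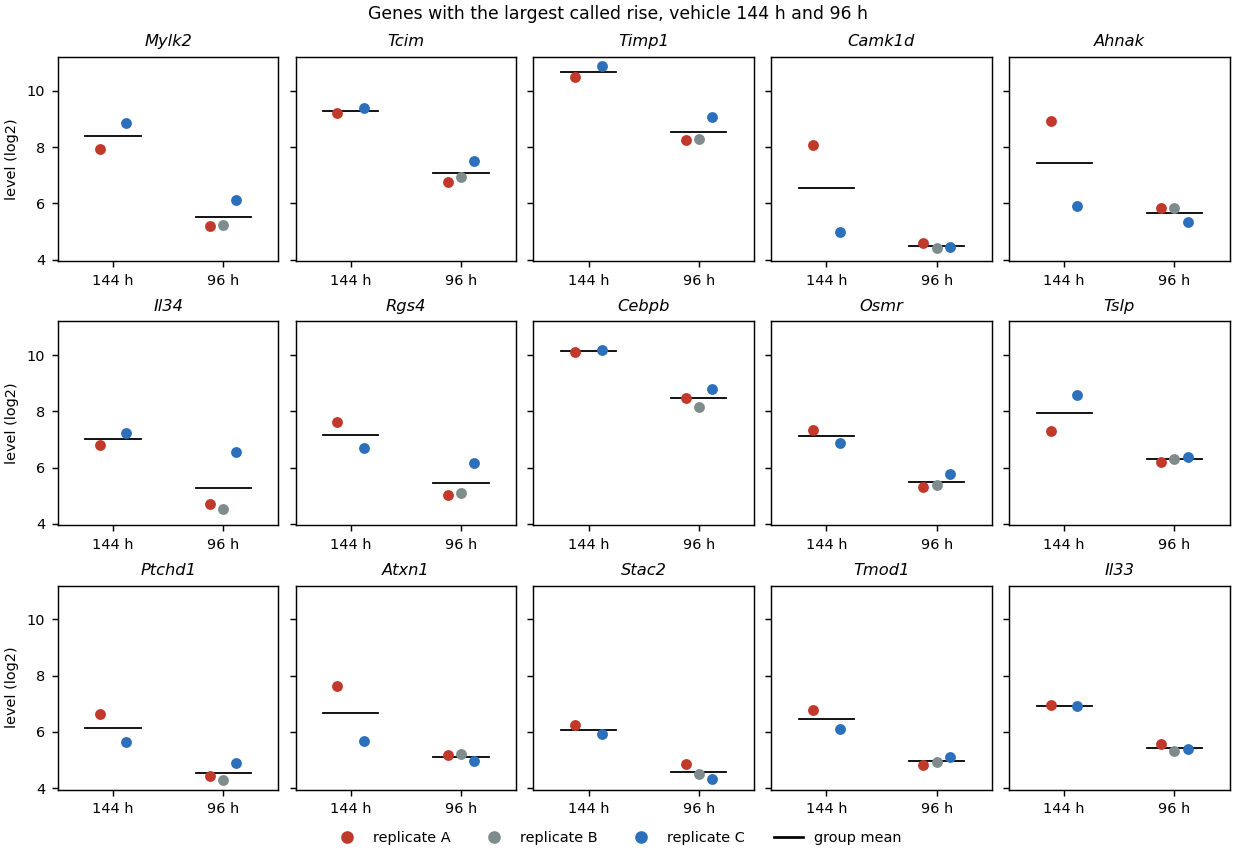
Level (log2, background-corrected and quantile-normalized) of the 15 genes with the largest called rise on the 2 vehicle arrays of 144 h (left) and the 3 of 96 h (right), coloured by replicate letter, with group means as bars. Mylk2, Tcim, Timp1, Cebpb and Il33 are high on both 144 h arrays, while Camk1d and Ahnak are high mainly on replicate A, at 8.06 and 8.93.

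The reactive astrocyte list, of genes known from astrocytes of injured tissue, had a positive median in both letters. Of 20 genes 15 were tested, with medians of 1.01 for the group difference, 0.90 in A and 0.87 in C. Of these, 3 rose (Timp1, Osmr and Ptx3), against 0.695% of all tested genes, 0 fell and 12 did not pass. Both 144 h arrays lay above all of 96 h in 7 of the 15, against 9.16% of all tested genes. The median level of the list was 7.82 and 8.86 at 144 h, against 6.79, 6.86 and 7.82 at 96 h. On this median 96 h replicate C was as high as 144 h replicate A. Ptx3, a pattern-recognition protein, was at 5.27 and 7.25 at 144 h and 4.60, 4.83 and 5.68 at 96 h (adjusted p = 0.0184), and its groups overlapped. Its difference of 1.22 became 0.23 without 144 h replicate C and 2.21 without 144 h replicate A. Without 144 h replicate A the list median was 0.54 and 3 rose, and without 144 h replicate C it was 0.77 and 4 rose. Without 96 h replicate A 1 rose, without 96 h replicate B 2, with the 20 vehicle arrays alone 1 and in the 5 arrays alone 0. Of 16 tested astrocyte genes 0 were called, with a median of 0.45 and summed levels of 39421 to 40257 at 144 h and 24258 to 36715 at 96 h. That median was 0.048 without 96 h replicate C and 0.14 with array weights. Gfap, the intermediate filament of astrocytes, was at 7.82 and 8.86 at 144 h, against 6.43, 5.97 and 7.14 at 96 h (1.83, adjusted p = 0.124), while a dimmer Gfap probe was called, 2.36-fold higher (adjusted p = 0.00083). Atp1b2 and Apoe, both expressed in astrocytes, differed by 1.37 and 1.20 (adjusted p = 0.486 and 0.679).

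Of 19 tested inflammatory and acute phase genes Cebpb alone rose, with a median of 0.56 over the list, 0.01 in matched A and 0.38 in matched C. Without 144 h replicate C the median was -0.29, with 1 higher and 2 lower calls, and without 144 h replicate A it was 1.22, with 4 higher calls. Without 96 h replicates A, B and C in turn the median was 0.20, 0.11 and 0.64, with 1, 2 and 3 higher calls. Lcn2, a siderophore-binding acute phase protein, was at 5.82 and 12.52 at 144 h, against 6.45, 5.95 and 8.48 at 96 h, so that only C was high at 144 h. The list median at 96 h was 6.45, 6.14 and 7.83 on A, B and C, and at 144 h 6.21 and 7.79 on A and C. On this median array C was the highest at each time.

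None of 18 tested interferon response genes was called, with 11 above and 7 below 0 and a median of 0.08, which was -0.06 with scaling to the detected probes. The matched A difference was below 0 in 15 of 18, with a median of -0.63. The matched C difference was above 0 in all 18, with a median of 0.55. Gbp2, a guanylate-binding protein, was at 8.41 and 9.83 at 144 h, against 7.55, 7.36 and 7.80 at 96 h (1.55, adjusted p = 0.292), and a dimmer probe of it was called (0.86, adjusted p = 0.0071). Ifit3, an interferon-induced protein with tetratricopeptide repeats, was at 4.87 and 7.89 at 144 h, against 4.81, 4.76 and 6.22 at 96 h, and Stat2, a transducer of type I interferon, differed by -0.51 with -1.22 in A and 0.19 in C. Of 12 tested antigen presentation genes 0 were called, with matched medians of -0.18 in A and 0.79 in C. Its members Psmb8, an immunoproteasome subunit, and H2-D1, a class I heavy chain, differed by 0.53 and 0.42 (adjusted p = 0.776 and 0.586).

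Lineage and stem cell genes gave few calls. Of 15 tested neural stem cell genes 0 were called, with a median of 0.06. Fabp7, the fatty acid-binding protein of radial glia, was at 7.37 and 7.47 at 144 h, against 8.69, 9.16 and 7.95 at 96 h (-1.18, adjusted p = 0.0603), and Hopx, of radial glia and quiescent stem cells, was -0.77 in C and 1.82 in A. Of 16 oligodendrocyte precursor genes 0 were called, with 13 below 0 and a median of -0.13. Pdgfra, their growth factor receptor, differed by -0.83 and Gpr17, of committed precursors, by -0.89 (adjusted p = 0.341 and 0.596). Of 10 tested myelin genes 0 were called, and Opalin, a myelin membrane protein, and Ugt8a, the galactosyltransferase of myelin lipid, differed by 1.48 and -1.004 (adjusted p = 0.0609 and 0.0833). Of 12 tested neuron genes Dlx2, a homeobox gene of interneuron precursors, rose at least 1.53-fold (5.61 and 4.60 at 144 h, against not detected at 96 h, adjusted p = 0.0364). Its difference was 0.28 without 144 h replicate A (adjusted p = 0.911), against 0.79 with it. Its lower bound sets each undetected array at the lowest level of a detected probe on it.

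Signalling lists added single genes. Jun, a subunit of AP-1, rose by 0.95, with 9.21 and 8.54 at 144 h and 7.97, 7.98 and 7.83 at 96 h (adjusted p = 0.0188), the only call among 18 tested immediate early genes. Dusp4, a phosphatase of MAP kinases induced by ERK, rose by 0.84, with 10.32 and 10.33 at 144 h and 9.37, 9.37 and 9.71 at 96 h (adjusted p = 0.0119), the only call among 18 genes of FGF and ERK feedback. Lower-signal Dusp4 probes differed by 0.54, 0.51 and -0.06 and were not called (adjusted p = 0.261, 0.329 and 0.966). Tgfb1, the growth factor TGF-beta 1, was not detected at 96 h and rose at least 1.41-fold, with 5.02 and 4.95 at 144 h (adjusted p = 0.0163). None of the 3 was called without 144 h replicate A, with Jun at 0.61, Dusp4 at 0.85 and Tgfb1 at 0.61 (adjusted p = 0.577, 0.119 and 0.216). Under scaling to the median of all probes Jun and Dusp4 differed by 1.19 and 1.07 (adjusted p = 0.333 and 0.482). The AP-1 letters TGANTCA, searched on both strands, stood in 7 of 59 promoter windows of genes that rose (11.9%), in 2 of 122 of genes that fell (1.64%) and in 419 of all 8979 (4.67%). The other motifs searched on both strands were C/EBP (TTGCNNAA), in 5.08% of risers, 9.02% of fallers and 7.74% of all windows, and STAT (TTCNNNGAA), in 3.39% of risers, 9.02% of fallers and 6.72% of all windows. ISRE stood in 1.69% of risers, 2.46% of fallers and 2.7% of all windows, RBPJ (TGGGAA) in 18.6% of risers, 21.3% of fallers and 22.6% of all windows and CRE (TGACGTCA) in 1.69% of risers, 4.92% of fallers and 3.37% of all windows.

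The Notch list had 14 tested genes and 0 calls, with medians of -0.57 in A and 0.40 in C, and Nrarp, a Notch target, differed by -0.69 (adjusted p = 0.488). Cholesterol synthesis had 17 tested and 0 called, with a median of -0.40 and 15 of 17 below 0. Its members Nsdhl, Stard4 and Fdps differed by -0.97, -0.82 and -0.80 (adjusted p = 0.135, 0.319 and 0.111). Of 20 tested genes of the ATF4 response 0 were called, among them Slc7a11, the cystine transporter, at 1.57 and Atf5, a stress-induced factor, at 1.32 (adjusted p = 0.0901 and 0.0748). Of its 3 dimmer Slc7a11 probes 2 were called, at 0.52 and 0.84 (adjusted p = 0.0419 and 0.00366). Of 17 tested p53 targets 0 were called, and Phlda3, a repressor of Akt, differed by 0.94 (adjusted p = 0.122). Extracellular matrix had 23 tested and Timp1 as its only call, with a median of 0.38. In the cytosolic ribosome, mitochondrial respiratory chain and hypoxia and glycolysis lists, 0 of 16, 0 of 20 and 0 of 21 tested genes were called, with medians of -0.08, -0.04 and 0.10. Of 4 tested pericyte, fibroblast and meninges genes and 5 ependymal and choroid genes 0 were called. Acta2, smooth muscle actin, was at 7.97 and 5.86 at 144 h, against 4.71, 4.64 and 9.91 at 96 h, with 3.26 in A and -4.05 in C, and its other 3 probes had the same signs.

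The Id genes, whose products hold basic helix-loop-helix factors off DNA, were not called. Id1 was at 8.79 and 9.28 at 144 h, against 9.37, 9.28 and 8.59 at 96 h (-0.04, adjusted p = 0.988). Id2 was at 10.43 and 9.58 at 144 h, against 10.30, 10.06 and 9.47 at 96 h (0.06, adjusted p = 0.973). Id4 was at 5.43 and 4.69 at 144 h, against 4.96, 4.96 and 4.52 at 96 h (0.25, adjusted p = 0.831). The groups overlapped in all 3. Id3, null in these cells, stayed under the filter on low values, at 4.47 and 4.77 at 144 h and 4.50, 4.55 and 4.21 at 96 h.

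**Figure D5:**
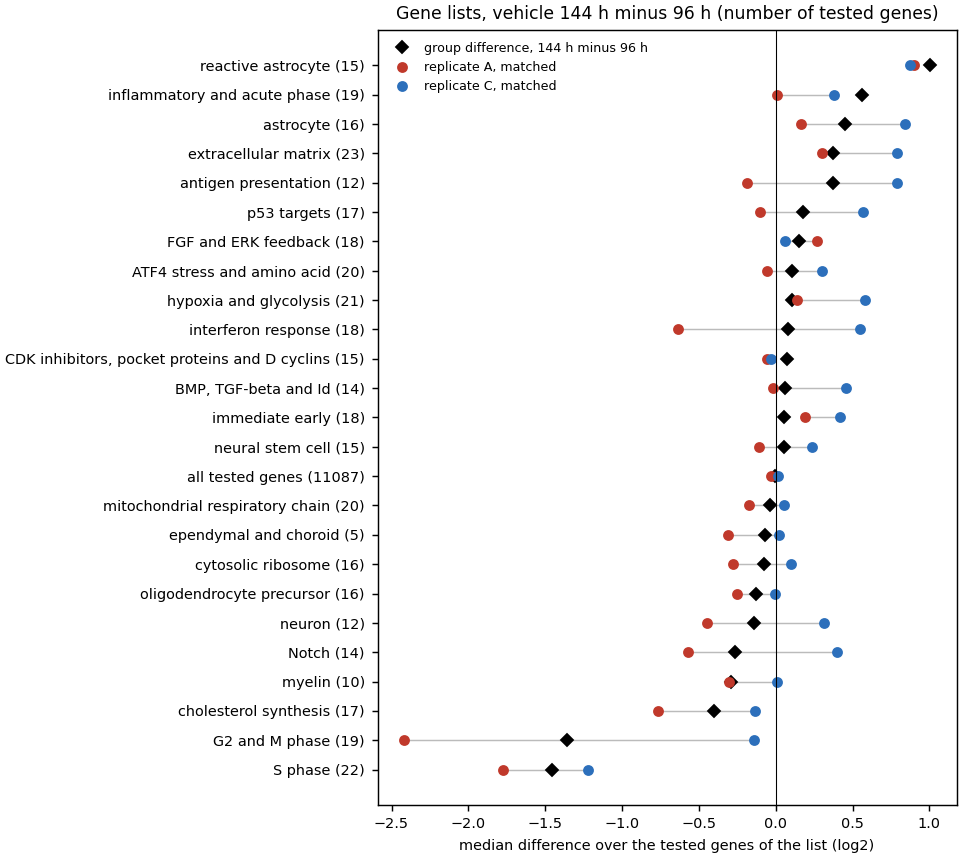
Median difference (log2, 144 h minus 96 h) over the tested genes of each list with at least 5 of them, for the group difference (diamonds), the matched A difference (red) and the matched C difference (blue), with the number of genes in brackets and all tested genes among the lists. S phase lies left of 0 in both letters (-1.77 and -1.22), the reactive astrocyte list lies right of 0 in both (0.90 and 0.87), and the interferon, Notch and G2 and M phase lists have their letters far apart.

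The genes with the widest gap between the matched differences show which arrays stood apart. They were picked for that gap among genes detected on all 5 arrays and carry no test. Hspa1a, an inducible Hsp70 chaperone, was at 6.37 and 5.90 at 144 h, against 5.39, 5.21 and 10.95 at 96 h, so 96 h replicate C alone was high. Sgk1, a kinase induced by serum and glucocorticoids, was at 12.16 and 8.82 at 144 h, against 8.43, 8.40 and 9.94 at 96 h, and Emp1, an epithelial membrane protein, at 10.07 and 6.00 at 144 h, against 6.79, 6.65 and 6.86 at 96 h. In both, 144 h replicate A was high. Myl1, a muscle myosin light chain, was at 4.80 and 9.57 at 144 h, against 6.91, 6.93 and 7.39 at 96 h, the opposite order. Srxn1, which repairs oxidized peroxiredoxins, was at 10.73 and 8.32 at 144 h, against 6.93, 6.87 and 9.12 at 96 h.

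Draxin, an axon guidance protein, was at 7.35 and 8.36 at 144 h, against 9.03, 8.85 and 5.87 at 96 h. In Draxin the low array was replicate C at 96 h. The part of single arrays in the letter-specific values was not tested.

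Between 144 and 96 h in the 4-OHT arrays 6 probes were called (0.0276% of those tested), all higher at 144 h, which make 2 genes with 1 probe each (0.018%), Mylk2 and Khdrbs2, an RNA-binding protein. The S phase list was below 0 in 22 of 22 genes with 4-OHT, with a median of -0.58 and 0 called, against -1.45 with vehicle. The G2 and M phase list had a median of -0.83 with 4-OHT, with -1.67 in matched A and -0.13 in matched C. Whether a gene's change differed between vehicle and 4-OHT was tested directly, and 2 probes passed (0.0092%), against 31 without 144 h replicate A of vehicle and 126 without replicate C. Plxdc1, a plexin domain-containing membrane protein, was at 5.82 and 5.76 at 144 h, against 4.73, 4.59 and 4.18 at 96 h with vehicle, and at 4.34 and 4.26 at 144 h, against 4.45, 4.34 and 4.26 at 96 h with 4-OHT. Its vehicle change exceeded the 4-OHT change by 1.34 ± 0.18 SE (adjusted p = 0.000187), and it was detected on 2 of the 3 vehicle arrays of 96 h. Stac2 exceeded it by 1.29 ± 0.18 SE (adjusted p = 0.000322), with 4.37 and 4.62 at 144 h and 4.40, 4.22 and 4.23 at 96 h with 4-OHT. Neither passed in the authors' deposited log2 values (adjusted p = 0.0701 for Plxdc1 and 0.118 for Stac2), with array weights (0.262 and 0.661) or with scaling to the detected probes.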

How the data were processed

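Transcript levels were measured with Illumina MouseWG-6 BeadChips. The authors deposited non-normalized bead intensity values per probe with a detection score (a detection p-value) from GenomeStudio, and log2 values made with lumi and quantile normalization, per the labels, the series' design text and the submitters' processing notes, whose versions are not given in the sources used here. Of 45281 probes, 21 with fields out of step were left out. Intensities were normalized with neqc of limma 3.58.1 in R 4.3.3 (offset 16). Probes with a detection p under 0.01 on at least 3 of the 40 arrays were tested with lmFit, 1 mean per group and eBayes with a trend (26 residual degrees of freedom), two-sided, with Benjamini-Hochberg adjustment. A gene is its tested probe with the highest mean. Where detection p was 0.05 or more on all arrays of a group, a fold is a lower bound. Symbols came from the platform annotation: 34872 of the probes used had 1, 18 several and 10370 none. The number of arrays limits the precision.

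Named genes are the 15 largest called rises and 15 largest called falls with groups that do not overlap and matched differences of 1 sign, up to 6 called members of each list (or up to 3 others as values), the 8 widest gaps between letters (1 is not reported here), the Id genes and genes called in the test against 4-OHT; single other members of the S phase, mitosis and cell cycle lists are given to complete a family. Second probes are given for some genes only. Uncalled second probes not given above include those of Cenpn (-1.25, adjusted p = 0.132) and Anln (-0.57, adjusted p = 0.456). They also include both other Cdc6 probes (-0.30 and -0.39, adjusted p = 0.66 and 0.479). Further uncalled ones belong to Mybl2, Clspn, Rbl1, Uhrf1, Mcm10, Rrm2, Tyms, Cdc20 and Timeless. Other second probes of Clspn, Mcm10, Rrm2, Tyms, Gins2, Bub1b and Cdc20 were called. Members and lists were chosen with earlier results of these data known. Alternatives were other scalings, filters, blocks, array weights, subsets of arrays and each array left out. The fit was also run on simulated arrays with independent noise of 1 spread per probe. These had no effect of the array series and no wider spread at 144 h, so that run cannot show whether the calls hold here.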

Additional observations from a re-analysis of the deposited data

Results flagged for a closer look

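The change in Plxdc1 between 96 and 144 h differed between vehicle and 4-OHT by 1.34 on the log2 scale (adjusted p = 0.000187), with both 144 h vehicle arrays above all vehicle arrays of 96 h. The same difference was 1.29 for Stac2 (adjusted p = 0.000322). The oligodendrocyte precursor list had a median difference of -0.13 with vehicle, with -0.25 in A and -0.01 in C, and of 0.27 in A and 0.90 in C with 4-OHT, so the vehicle median was near 0 in C, where 9 of 16 genes lay below 0, and the difference between vehicle and 4-OHT was not tested. Without vehicle 144 h replicate C the vehicle median was 0.14.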

How the results depend on the processing

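The 353 probes called became 127 with scaling to the median of all probes, 206 with array weights, 91 with the 20 vehicle arrays alone, 690 with the array run as a block, 69 with both arrays of letter A left out and 1914 with both of letter C. In the 5 arrays alone limma called 0, with 1284 at an unadjusted p under 0.05. The group differences of that fit are those of the main fit, so the direction of the named genes could not change. Leaving out 1 array gave 109 to 1766. With the replicate letter within its array series as a block 474 were called. Correlations of deviations between 96 and 144 h were 0.0597 for letter A and 0.0843 for C. With 2 arrays at 144 h their deviations mirror each other, so these values cannot show whether the letters are pairs. The main fit took no pairs, as no label says that a letter marks a shared culture. Between 18, 24 and 48 h those of the same letter ran from 0.294 to 0.669. Those of A with B, in 1 array series, ran from 0.288 to 0.593, and those of A or B with C were negative. Deviations from a group mean sum to 0, so negative values were in part fixed in advance. These values therefore do not single out the letter. Under the replicate block Gfap, Atf5, Opalin, Slc7a11 and Gbp2 were called (adjusted p = 0.0091, 0.00256, 0.0169, 0.0122 and 0.0396). Anln and Cdc20 were not called there, so the G2 and M phase list had 4 calls in place of 6. The 2 probes whose change differed from that with 4-OHT became 0 with the authors' log2 values, with array weights and with scaling to the detected probes, and 4 without background correction, with the replicate block and with the array run as a block. They became 27 without both arrays of letter A and 130 without those of letter C, and 2 to 126 with 1 array left out. At an unadjusted p under 0.05, 539 probes differed. The 6 probes called between 144 and 96 h with 4-OHT were 0 with the authors' log2 values and with scaling to the detected probes, 20 with the replicate block, and 26 with the array run as a block. The 154 probes over 2-fold in both letters were 88 in the authors' values, 71 without background correction and 700 at 1.5-fold.

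Over 47 called genes and 939 values under alternatives, 673 stayed called with the same direction, 266 kept the direction and missed the threshold, and 0 reversed. The largest rises and falls among them were picked for groups that do not overlap, so leaving out arrays could not reverse these. Other filters and fits on the vehicle arrays alone left the differences unchanged. The count of 0 was therefore partly fixed in advance and is not read as a test of direction. The uncalled Id differences changed sign. Id1 was 0.21 with scaling to the median of all probes and 0.35 without both arrays of letter A. Id2 was -0.22 with array weights and -0.19 without letter A, and Id4 -0.044 without letter A. Stat2 was 0.16 without letter A, and Psmb8 and H2-D1 -0.33 and -0.12 without letter C. With 1 array left out Id1 ran from -0.28 to 0.20, Id2 from -0.36 to 0.49, Id4 from -0.12 to 0.62, Ifit3 from -0.40 to 2.62, Stat2 from -1.15 to 0.13, Psmb8 from -0.42 to 1.49, H2-D1 from -0.21 to 1.05 and Gpr17 from -2.33 to 0.55. The cause of these changes was not tested.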
